A study of Mus musculus with 6 samples.

Results

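Odf1, Odf2, Odf4 and Tekt1 to Tekt5, the 8 genes described here, encode outer dense fibre proteins and tektins of the sperm tail. They were taken by symbol from tables of 25165 gene symbols, and all 8 were found, each on 1 row per library. RNA came from the testes of C57BL/6 mice aged 8 weeks, in 3 libraries whose titles read KO, the study's name for mice without the testis long non-coding RNA Teshl (1700027A15Rik), and 3 whose titles read WT. The genotype field says the opposite in all 6 cases, wild type for the KO titles and a homozygous loss for the WT titles. KO and WT below mean the titles, and every difference is KO minus WT. How the allele was made, how the mice were bred, and whether a library is 1 animal or a pool are not in the labels. Expression is in FPKM, fragments scaled to the length of the transcript and the size of the library.

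Outer dense fibres are stiff rods that run along the axoneme of the mammalian sperm tail, through the midpiece and principal piece, and give it tensile strength. They are built late in spermatogenesis from keratin-like and cysteine-rich proteins. Tektins are coiled-coil filament proteins that lie inside the doublet microtubules of cilia and flagella and stiffen them. In the testis both groups are made mainly by spermatids, while some tektins and forms of Odf2 are also used by ciliated or centriole-bearing cells elsewhere.

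The comparison asks whether transcripts of these structural parts of the tail differed between the groups. None of the 8 genes passed the test, and the 95% confidence intervals of their KO to WT ratios, on the FPKM + 1 scale, reached no lower than 0.872 (Tekt4) and no higher than 1.14 (Tekt2). Of the 12952 genes tested, 1.15% were called (limma, Benjamini-Hochberg adjusted p below 0.05), 0.788% higher and 0.363% lower, against 0 of the 8. At an unadjusted p below 0.05, 14.3% of all tested genes and 0 of the 8 passed.

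The labels were checked against the targeted gene, 1700027A15Rik, which was at 0.385 FPKM in KO replicate 1, listed at 0 in KO replicates 2 and 3, and at 989 to 1081 FPKM in WT. The target was thus low where the title says KO, which the genotype field does not say. Libraries summed to 393622 to 413604 FPKM, and the spacing of the lowest values put their depth at about 28000000 to 39200000 fragments. Log2 values correlated at 0.981 to 0.993 between any pair of libraries. Markers of the labelled tissue were abundant, the 8 of elongating spermatids summing to 28476 to 35736 FPKM. Of 7 epididymis markers, Lcn5, Adam7 and Spink12 were listed at 0 throughout, and the 7 summed to 2.48 to 3.07 FPKM. Nearly all of that sum was Rnase10 (means 2.53 FPKM in KO and 2.65 FPKM in WT). In whole testis, fewer cells of a type cannot be told apart from less RNA per cell.

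The regions before the gene starts were read to show what the genes share in sequence. RefSeq windows (GRCm38.p6, the assembly of the mm10 build that the submitters' processing notes name) were matched for 7 of the 8 genes, all but Odf1, and the 250 bases before the first listed start were searched on both strands. The sequences of 3 tektin genes are shown. Of the 7 genes, only Tekt1 and Tekt2 held the exact letters of the X-box core, read by RFX factors of ciliated cells and spermatids. Tekt4 had the largest log2 fold change of the 8 genes in size, -0.09, but was not called (limma, adjusted p = 0.436). Variants of the core were not searched. Each sequence runs 5′ to 3′ on the strand of its gene, with motif matches in capitals. The windows of Tekt1 and Tekt4 lie inside the longer GENCODE M21 gene spans given below, and that of Tekt2 lies outside its gene.
Tekt1, chr11:72361883-72362132, minus strand: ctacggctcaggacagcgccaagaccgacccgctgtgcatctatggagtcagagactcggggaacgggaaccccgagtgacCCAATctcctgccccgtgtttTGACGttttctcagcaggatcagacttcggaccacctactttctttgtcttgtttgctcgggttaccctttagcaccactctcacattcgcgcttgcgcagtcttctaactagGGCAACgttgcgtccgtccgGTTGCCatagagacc
Tekt2, chr4:126325689-126325938, minus strand: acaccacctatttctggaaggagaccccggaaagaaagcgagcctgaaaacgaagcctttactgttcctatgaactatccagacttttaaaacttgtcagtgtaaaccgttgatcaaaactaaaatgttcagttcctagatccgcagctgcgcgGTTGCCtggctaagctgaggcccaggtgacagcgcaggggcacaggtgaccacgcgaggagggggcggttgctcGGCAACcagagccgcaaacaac
Tekt4, chr17:25471340-25471589, plus strand: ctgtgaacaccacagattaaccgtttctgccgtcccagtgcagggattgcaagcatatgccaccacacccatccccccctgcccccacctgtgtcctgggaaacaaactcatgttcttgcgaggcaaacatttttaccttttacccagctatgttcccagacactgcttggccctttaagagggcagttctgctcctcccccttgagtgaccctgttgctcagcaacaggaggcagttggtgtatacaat

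The X-box core was searched as GTTGCC and its reverse complement GGCAAC. Tekt1 held both forms, with first bases 35 and 15 bp before the start (-35 and -15), and Tekt2 held both at -22 and -96. Matches were thus in 2 of the 7 genes, beside 10.5% of the 27025 promoters of the same length. The cyclic AMP response element core TGACG (reverse complement CGTCA), read by CREM in spermatids, was in Odf2 at -102 and -27 and in Tekt1 at -148, or 2 of the 7 beside 17.9% of all promoters. The full element TGACGTCA, which contains that core, was in 0 of the 7 and in 1.62% of all. CCAAT (reverse complement ATTGG) was in Tekt1 at -169 and in 34.5% of all promoters. The forkhead site TGTTTAC (reverse complement GTAAACA) was in Tekt3 at -174 and in 3.09% of all. TATAAA (reverse complement TTTATA) was in 0 of the 7 and in 3504 of the 27025. Odf4, Tekt4 and Tekt5 held none of the 6 motifs in these exact letters in their windows. These matches describe letters in a window and say nothing of binding.

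**Figure D1:**
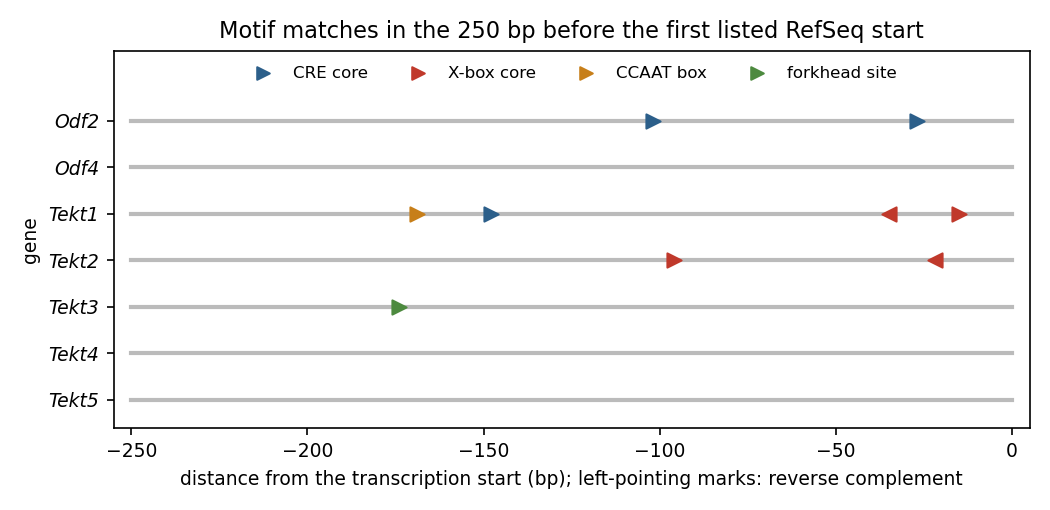
Positions of motif matches (triangles, coloured by motif) in the 250 bp before the first listed RefSeq start of 7 genes; the x axis is the distance from the start in bp, and left-pointing triangles are matches to the reverse complement. Tekt1 holds 4 matches, Odf2 and Tekt2 hold 2 each, Tekt3 holds 1, and Odf4, Tekt4 and Tekt5 hold none.

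Odf1, on chromosome 15 at 38219203 to 38226735 (GRCm38, plus strand), encodes the main cysteine-rich protein of the outer dense fibres, which also helps to hold the sperm head to the tail. Its level was 952, 1039 and 958 FPKM in KO replicates 1 to 3 and 1036, 976 and 1008 FPKM in WT replicates 1 to 3. The highest library was a KO one and the lowest was too, so the groups overlapped. The means were 983 ± 48.9 FPKM in KO, against 1007 ± 29.8 FPKM in WT (SD, n = 3 each). As log2(FPKM + 1), the scale of every log2 fold change here, the difference was -0.04 (SE 0.05; limma, adjusted p = 0.740).

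Odf2, on chromosome 2 at 29889221 to 29931746 (plus strand), encodes the other main fibre protein, and some of its isoforms sit on the appendages of the mother centriole. GENCODE M21 lists 25 transcripts for it, 14 of them protein-coding, and the deposited value is 1 figure for all of them, so tail and centriole forms were not separated. Its level was 999, 1027 and 1049 FPKM in KO, against 986, 1017 and 1039 FPKM in WT. The groups interleaved over this range, which spanned a factor of only 1.06 between the lowest and the highest library. This came to a log2 difference of 0.02 (SE 0.04; limma, adjusted p = 0.874). Exons of a small nuclear RNA gene on the opposite strand, Gm23865, overlap those of Odf2.

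Odf4, on chromosome 11 at 68921835 to 68927081 (minus strand), encodes a membrane protein of the sperm tail. It was transcribed at a much lower level than the genes of both main fibre proteins, at 125, 131 and 128 FPKM in KO, against 127, 124 and 128 FPKM in WT. Its coefficient of variation over the 6 libraries, 2.06%, was the lowest of the 8 genes. The groups overlapped, with a log2 difference of 0.02 (SE 0.05; limma, adjusted p = 0.849).

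**Figure D2:**
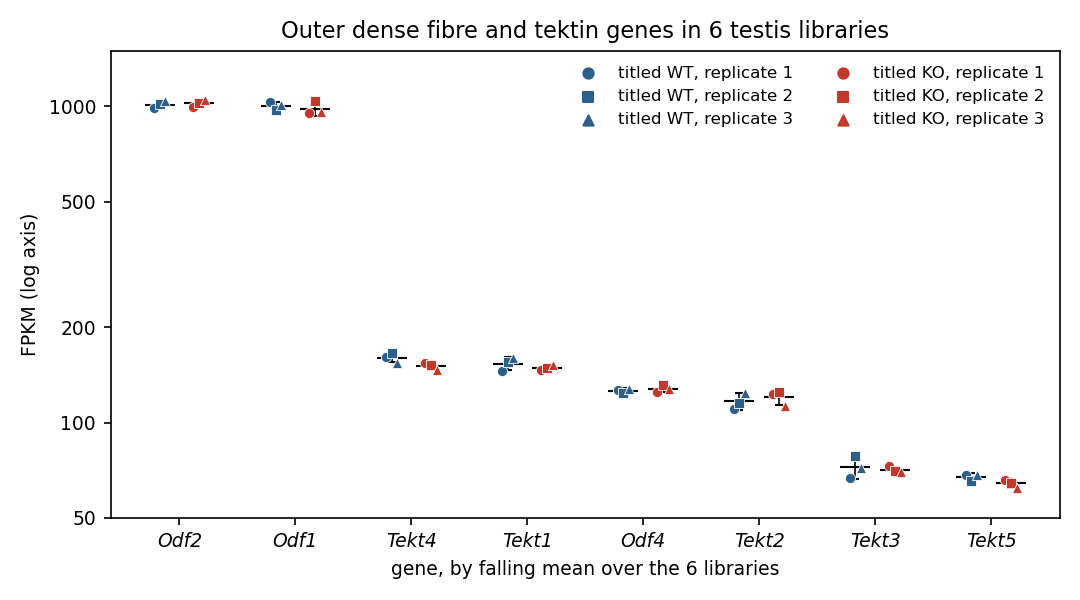
FPKM (log axis) of the 8 genes, ordered by mean, in the 3 libraries of WT (blue) and the 3 of KO (red); marker shapes give the replicate, and black bars the group mean and SD. Odf2 and Odf1 lie between 952 and 1049 FPKM and the other 6 genes between 62.1 and 166 FPKM, with the groups side by side at each gene.

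Tekt4, on chromosome 17 at 25454615 to 25476602 (plus strand), encodes a tektin tied to the coordinated beating of the sperm tail, and it was the member whose groups lay farthest apart. Its level was 154, 152 and 146 FPKM in KO, against 161, 166 and 155 FPKM in WT. Every KO library lay below every WT library, but the gap was narrow: the highest KO library had 154.4 FPKM and the lowest WT library 154.9 FPKM. The means were 151 ± 4.19 and 161 ± 5.48 FPKM (SD, n = 3 each), a ratio of 0.941. Its log2 fold change of -0.09 (SE 0.05, 95% interval -0.20 to 0.03; limma, adjusted p = 0.436) did not pass. Groups without overlap were seen in 1 of the 8 genes and in 21.7% of all tested genes.

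Tekt5, on chromosome 16 at 10357948 to 10395490 (minus strand), encodes a tektin found chiefly in sperm. It was the least abundant of the 8 genes, at 66.0, 64.5 and 62.1 FPKM in KO, against 68.1, 65.3 and 68.5 FPKM in WT. KO replicate 1 lay above WT replicate 2, so the groups overlapped. In log2 terms KO minus WT came to -0.07 (SE 0.05; limma, adjusted p = 0.543).

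Tekt1, on chromosome 11 at 72344722 to 72362442 (minus strand), encodes a tektin of the axonemal doublets. It was at 146, 149 and 153 FPKM in KO, against 146, 155 and 160 FPKM in WT. The lowest library of each group was nearly equal and the groups overlapped. KO minus WT was -0.04 in log2 units (SE 0.05; limma, adjusted p = 0.709).

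Tekt2, on chromosome 4 at 126322121 to 126325688 (minus strand), encodes tektin-t, needed for normal sperm motility. It was at 123.4, 125 and 113 FPKM in KO, against 110, 116 and 124 FPKM in WT, and it varied most over the 6 libraries, with a coefficient of variation of 5.55%. The groups overlapped and differed by 0.04 in log2 units (SE 0.06; limma, adjusted p = 0.745). Exons of a non-coding gene on the opposite strand, Gm12945, overlap those of Tekt2, and no source used here gives the strand setting of the quantification. Neither Gm12945 nor Gm23865 is among the symbols analysed, and their part in the values of Tekt2 and Odf2 was not tested. At the target, whose exons overlap those of Tnp1 on the opposite strand, the KO values of 0 to 0.385 FPKM stood beside 5159 to 5600 FPKM of Tnp1.

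Tekt3, on chromosome 11 at 63061654 to 63094964 (plus strand), encodes another tektin of the flagellum. It was at 72.8, 70.4 and 69.9 FPKM in KO, against 66.7, 78.4 and 71.6 FPKM in WT. Both the lowest and the highest library were WT. The log2 difference was -0.02 (SE 0.06, 95% interval -0.17 to 0.12; limma, adjusted p = 0.878).

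**Figure D3:**
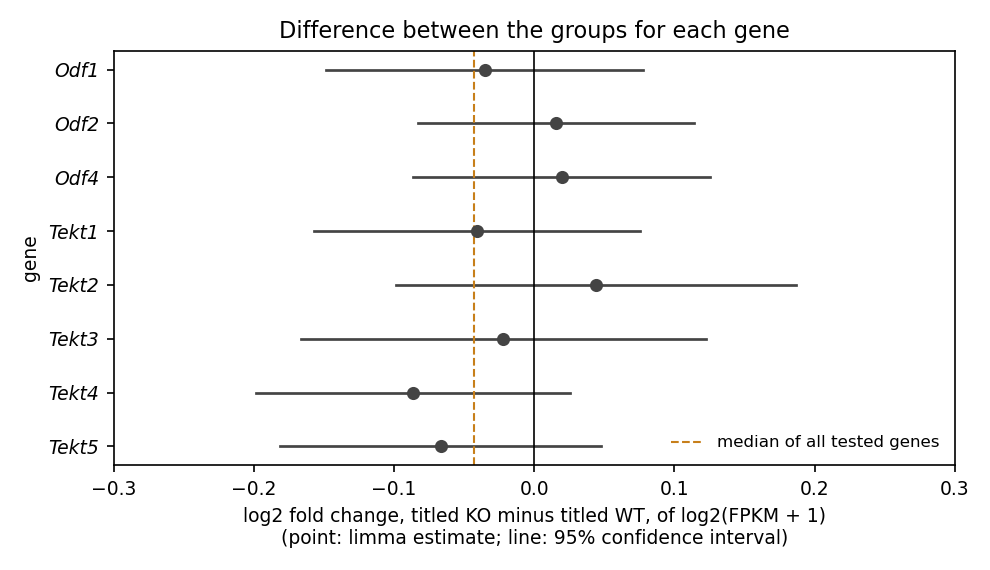
Log2 fold change of each gene, KO minus WT (point: limma estimate on log2(FPKM + 1); line: 95% confidence interval), with the median of all tested genes dashed. All 8 intervals include 0, and the estimates run from -0.09 (Tekt4) to 0.04 (Tekt2).

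Over the 8 genes, 3 estimates were above 0 and 5 below, with a median log2 fold change of -0.03 beside -0.04 for all 12952 tested genes. All 8 genes passed the filter of a mean of at least 1 FPKM in 1 group or more. Summed over the 8 genes, KO held 2638 to 2759 FPKM and WT 2697 to 2754 FPKM. Leaving out single libraries, other scalings, other pseudocounts and other filters gave no call for any of the 8. The signs of Odf1 and Tekt1 turned with median-of-ratios scaling, that of Tekt3 with that scaling and with upper-quartile scaling and without WT replicate 2, and that of Odf2 without KO replicate 3 or WT replicate 1.

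All 8 genes were deeply covered. With the estimated depths and the GENCODE principal transcripts, the shallowest library held about 3300 fragments of Tekt3 and 67700 of Odf2, for a counting error of 1.75% and 0.385%. The spread over the 6 libraries, with both groups pooled, was 2.06% to 5.55% by the coefficient of variation, with a median of 3.75%. The other 1234 tested genes with means between those of Tekt5 and Odf2 had a median of 5.29% (quartiles 3.76% and 7.52%). No transcript of another gene aligned to a member at 90% identity or more over 50% of its length, and the best match between members, Tekt3 with Tekt5, had 67.7% identity over 468 bp.

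Because FPKM is scaled to length, levels were set in order between genes. The transcript lengths that the quantifier used are not known, so the order of genes with close means is uncertain. Odf2 (mean 1019 FPKM over the 6 libraries) and Odf1 (995 FPKM) ranked 20 and 22 of the 25165 symbols. Their ranges overlapped, and Odf2 was the higher in 4 of the 6 libraries. Odf1 lay 6.38-fold above the next gene, Tekt4 (156 FPKM), with no overlap. Tekt4 and Tekt1 (152 FPKM) overlapped, and both lay above Odf4 (127 FPKM) in all 6 libraries, the lowest Tekt1 library at 146 FPKM against 131 FPKM for the highest Odf4 one. Odf4 was above Tekt2 (119 FPKM) in 6 of 6 libraries although their ranges overlapped. Tekt2 lay apart from Tekt3 (71.6 FPKM), and Tekt3 and Tekt5 (65.8 FPKM) overlapped, with Tekt3 the higher in 5 of 6 libraries.

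The proportions among the transcripts were then compared, since a ratio within a library does not depend on how that library is scaled. The ratio of Odf1 to Odf2 was 0.959 ± 0.050 in KO and 0.994 ± 0.0492 in WT (SD, n = 3 each). The summed Odf genes stood at 3.84 ± 0.134 times the summed tektin genes in KO and 3.76 ± 0.124 times in WT. Tekt4 made up 26.9% to 27.4% of the tektin sum in KO and 26.7% to 29.1% in WT, and Tekt2 made up 20.7% to 22.3% and 19.9% to 21.5%. Tekt1 gave 26.0% to 28.1% and 26.5% to 27.6%, Tekt3 12.5% to 12.9% and 12.1% to 13.5%, and Tekt5 11.4% to 11.7% and 11.2% to 12.3%. The groups overlapped in each of these 7 proportions.

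**Figure D4:**
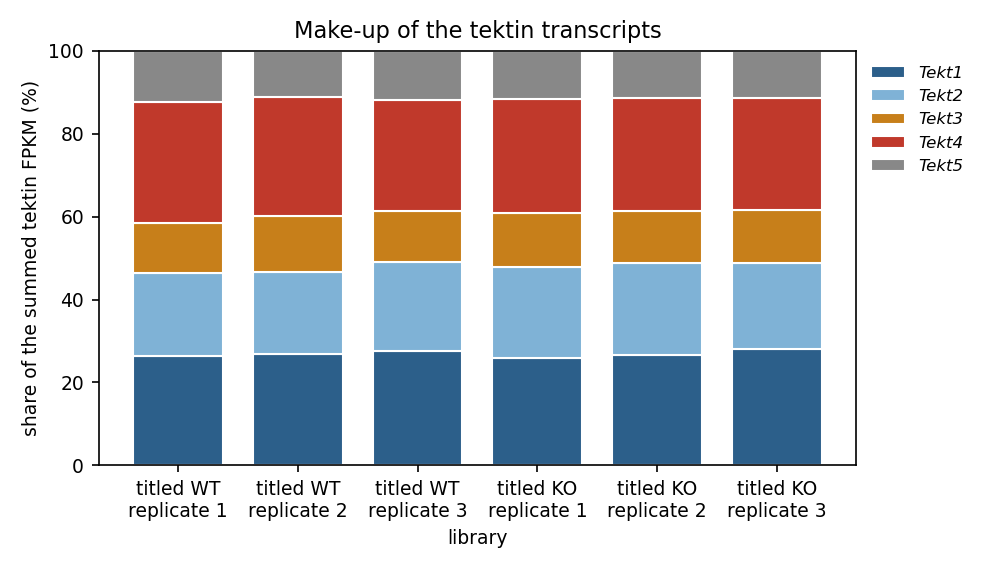
Share of each tektin gene in the summed FPKM of the 5 tektin genes (%, stacked to the total), by library. Tekt1 and Tekt4 each take 26.0% to 29.1% in every library and Tekt5 the least, 11.2% to 12.3%.

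The profiles of the members over the 6 libraries were then compared with each other. Of their 28 pairs, 17 had a positive and 11 a negative Pearson correlation of log2 values, from -0.62 (Odf4 with Tekt3) to 0.71 (Odf2 with Tekt1), with a median of 0.115. These are descriptions over 6 points that share the scaling of each library. The tested gene with the most similar profile was C1galt1c1 for Odf1 (r = 0.984), Irf3 for Odf2 (0.989), Phactr1 for Odf4 (0.995), Gabpa for Tekt1 (0.998), Ndufc1 for Tekt2 (0.981), Atp9a for Tekt3 (0.999), Papolb for Tekt4 (0.997) and 2810002D19Rik for Tekt5 (0.986). Between 9 and 109 genes per member reached a correlation above 0.95, out of the 12952 tested with the members left out. Each named gene was picked as the highest of these over only 6 libraries, so its correlation alone does not show a link. Under the 3 other scalings the value was 0.525 to 0.613 for Irf3 and 0.520 to 0.866 for Phactr1.

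The neighbours of the members in the tail were read from lists of genes by structure. Of 10 other outer dense fibre relatives and partners, 9 were tested and 0 were called by limma, beside 1.15% of all. With unadjusted p below 0.05, 0 were higher and 1 lower, beside 14.3% of all, and the median log2 fold change was 0.04. Odf3b, a relative of a sperm tail protein, had the smallest p, at 7.46 ± 0.412 FPKM in KO, against 9.21 ± 0.657 FPKM in WT (SD, n = 3 each; log2 fold change -0.27; limma, adjusted p = 0.130). Tssk4, a testis-specific kinase known to act on ODF2, was at 80.0 ± 5.90 and 72.5 ± 1.97 FPKM (SD, n = 3 each; log2 fold change 0.14; limma, adjusted p = 0.353).

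Other microtubule inner proteins, which line the doublets beside the tektins, had 0 of 19 tested genes called by limma, beside 1.15% of all. With unadjusted p below 0.05, 2 were higher and 0 lower, beside 14.3% of all, and the list median was -0.03. The 2 with the smallest p are named, neither of them called. Ribc1 was at 24.7 ± 2.90 FPKM in KO, against 18.5 ± 2.60 FPKM in WT (SD, n = 3 each; log2 fold change 0.40; limma, adjusted p = 0.183). It passed without WT replicate 3 (log2 fold change 0.49; limma, adjusted p = 0.0467). Efhc2 was at 12.6 ± 0.944 and 10.8 ± 0.482 FPKM (SD, n = 3 each; log2 fold change 0.21; limma, adjusted p = 0.234).

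Genes of the connecting piece, which joins the tail to the head, had 0 of 11 tested members called by limma, beside 1.15% of all. There were 3 higher and 0 lower with unadjusted p below 0.05, beside 14.3% of all, and the list median was 0.01. Cep112, a centrosomal gene, was at 116 ± 9.40 FPKM in KO against 95.6 ± 9.06 FPKM in WT (SD, n = 3 each; limma, adjusted p = 0.192), and Sun5, which anchors the tail at the nuclear envelope, at 48.7 ± 7.07 against 40.1 ± 4.28 FPKM (SD, n = 3 each; limma, adjusted p = 0.329).

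Genes of the annulus and mitochondrial sheath had 1 of 10 called, and it was higher, beside 1.15% of all tested genes called and 0.788% called higher. At an unadjusted p below 0.05, 2 were higher and 0 lower, beside 14.3% of all, and the median was 0.07. Septin4, a septin of the annulus ring between midpiece and principal piece, was at 42.3, 48.2 and 46.9 FPKM in KO, against 33.4, 34.1 and 37.4 FPKM in WT. All 3 KO libraries lay above all 3 WT libraries. It rose 1.31-fold (log2 fold change 0.38, SE 0.07; limma, adjusted p = 0.0345). The call was lost without KO replicate 2 (limma adjusted p = 0.137), KO replicate 3 (0.157), WT replicate 1 (0.146) or WT replicate 2 (0.0997). It was also lost without a filter (0.0951), without robust estimation (0.0560) and with the replicate number as a block (0.0952). In these fits the log2 fold change was 0.34 to 0.38.

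**Figure D5:**
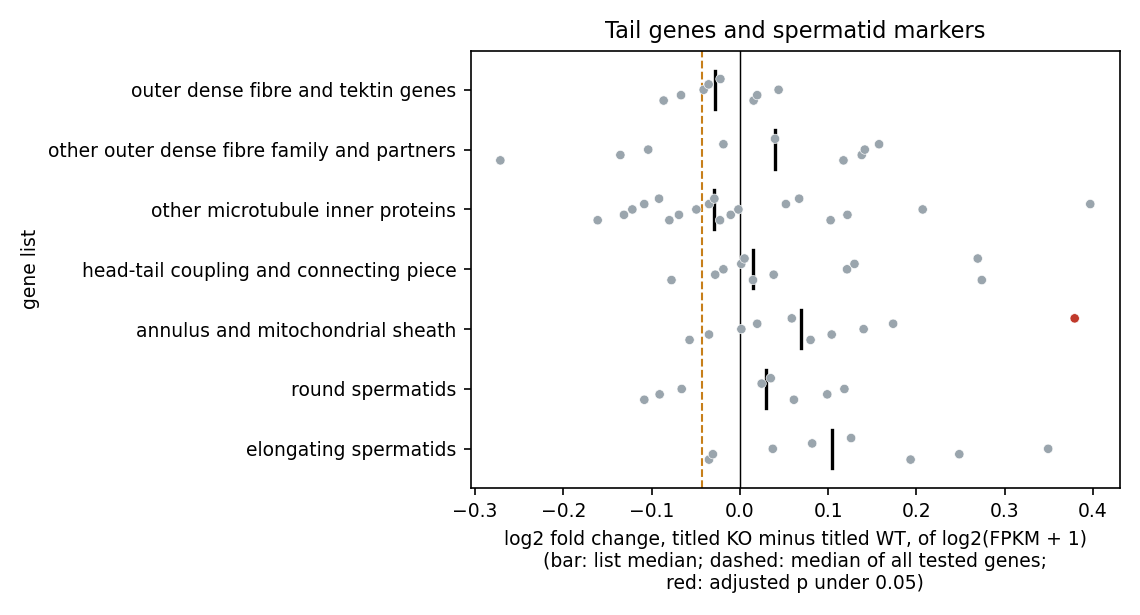
Log2 fold changes, KO minus WT, of the tested genes in 5 tail gene lists and 2 lists of spermatid markers (1 point a gene, red where the adjusted p was below 0.05; black bars are list medians, the dashed line the median of all tested genes). The members lie between -0.09 and 0.04, and Septin4 in the annulus list is the single red point.

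Markers of cell stages were set beside the members because tail genes are read from RNA of a mixed tissue. None of the 8 elongating spermatid markers was called (by limma; 4 higher, 0 lower, with unadjusted p below 0.05), beside 14.3% of all tested genes at that p. Their sum did not overlap between the groups, at 33706 to 35736 FPKM in KO and 28476 to 32364 FPKM in WT. Most of that difference lay in 3 abundant genes of sperm chromatin packing, Prm1 (means 10218 and 8608 FPKM in KO and WT), Tnp2 (6615 and 5207 FPKM) and Prm2 (8837 and 7733 FPKM). Akap4 was also higher in KO, with means of 545 and 499 FPKM and no overlap (log2 fold change 0.13, limma adjusted p = 0.247). The groups overlapped for Tnp1, Gapdhs, Akap3 and Smcp, with log2 fold changes of 0.08, 0.04, -0.03 and -0.03. Round spermatid markers summed to 658 to 762 FPKM in KO and 685 to 739 FPKM in WT, with 0 of 8 called (0 at an unadjusted p below 0.05). The 6 markers of multiciliated cells, which also use tektins, summed to 103 to 114 and 104 to 109 FPKM, with 0 of the 3 tested called (0 at an unadjusted p below 0.05). That sum was nearly all Deup1 (means 80.6 and 76.8 FPKM) and Foxj1 (25.1 and 28.4 FPKM), while Ccno was at 1.42 and 1.49 FPKM and Mcidas, Gmnc and Myb were under the filter. The 7 spermatogonia markers also summed to ranges without overlap, 68.4 to 77.6 FPKM in KO and 79.2 to 86.1 FPKM in WT. By limma, 0 of the 5 tested were called (2 lower at an unadjusted p below 0.05, beside 14.3% of all). The groups did not overlap in 2 of these 5 genes, beside 21.7% of all tested genes. Most of the difference in the sum lay in Uchl1 (means 22.7 and 29.8 FPKM in KO and WT) and Dazl (38.3 and 42.0 FPKM). Kit (3.66 and 4.27 FPKM) and Stra8 (3.73 and 4.37 FPKM) were also lower, and Gfra1 was at 2.02 and 2.01 FPKM. Spermatocyte, Sertoli, Leydig and peritubular cell markers had 0 called and 1 lower each at an unadjusted p below 0.05 (limma), macrophage and epididymis markers 0 and 0, and the summed ranges of these 6 lists overlapped between the groups. The part of cell make-up in the members' values was not tested.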

How the data were processed

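RNA of whole testis was measured in 6 libraries made with a directional kit, per the labels' protocols. The authors deposited normalized values, read here as FPKM because they are fractional, have unequal sums and step with transcript length. Alignment used HISAT2 and mm10, per the submitters' processing notes; no source used here gives versions, quantifier, annotation or strand setting. Each table had 25910 rows, and values were summed per symbol. Groups followed the titles.

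The test was limma 3.58.1 (R 4.3.3; eBayes, trend and robust) on log2(FPKM + 1), over 12952 genes whose mean reached 1 FPKM in KO or WT, with Benjamini-Hochberg adjustment at 0.05. Folds on this scale understate changes of low genes. Separate animals are not stated, so the p-values reflect spread among libraries that may be technical. Fragment depth was estimated from steps of low values in genes of 1 transcript (within 0.02 on the log10 scale; 78 to 94 genes per library at 1 step and 8 to 20 at 1.5 steps), and the floor of 3 fragments on 1 kb was 0.0765 to 0.107 FPKM, for counting error only. Positions came from GENCODE M21, near copies from BLAST 2.17.0, and figures from matplotlib 3.10.9. Members, lists and motifs were chosen with earlier results of these data known. Named genes were the members, the target, called genes of each tail list (the smallest p in lists without a call: 2 genes) and the most similar profile per member. Alternatives were other pseudocounts, filters, scalings, a fit without the robust option, a block for the replicate number, and single libraries left out.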

Additional observations from a re-analysis of the deposited data

How the results depend on the processing

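None of the 8 members was called under any of the 15 alternatives (adjusted p at least 0.373, log2 fold changes within 0.112 of 0). The sign turned in 7 of 120 member values: Odf1 to 0.0079, Tekt1 to 0.0020 and Tekt3 to 0.021 with median-of-ratios scaling, Tekt3 to 0.0082 with upper-quartile scaling, and with single libraries left out, where Odf2 ranged from -0.0042 to 0.034 and Tekt3 from -0.077 to 0.038. The cause was not tested, beyond the shift of all genes by the scalings (median log2 fold change -0.043 as deposited, -0.0055 with median-of-ratios and -0.016 with upper-quartile scaling). Genes called over the whole table, 149, numbered 88 without a filter (21222 genes tested), 50 with the replicate number as a block, and 73 to 233 with single libraries left out: the count was 73 when KO replicate 2 was absent, 77 for KO replicate 3, 81 for WT replicate 1 and 233 for WT replicate 3. Same-numbered libraries deviated together with correlations of 0.065, -0.13 and 0.061, and different-numbered ones with -0.25 to 0.20. Deviations from means of 3 libraries cannot show whether a number marks a shared litter or day, and no source used here states it. The members' calls stayed at 0 under the replicate block. The annulus list had 0 called without a filter, without robust estimation and with the block (Septin4, adjusted p = 0.0952), and 0 to 1 with single libraries left out. The list of other microtubule inner proteins had 0 to 1 in that case. With a pseudocount of 0.01 the target's log2 fold change was -14.89 (limma adjusted p = 0.0644). Groups of 3 libraries limit what can be told: no outlier could be tested.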
